A study of Homo sapiens with 9 samples.

Results

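The clustered protocadherins are the 53 protein-coding genes of GENCODE on chromosome 5 whose symbols begin with PCDHA, PCDHB, PCDHGA, PCDHGB or PCDHGC, out of 20033 protein-coding genes in all. They were chosen by symbol and chromosome alone, with 15 in the PCDHA subcluster, 16 in PCDHB and 22 in PCDHG, and all were annotated on the plus strand of GRCh38. Open chromatin was mapped by ATAC-seq, which uses the Tn5 transposase to tag accessible DNA with adapters, in 9 libraries of MDA-MB-231, a human triple-negative breast cancer (TNBC) cell line, with 50000 cells per library. The libraries were 2 of cells with a control shRNA (shCtrl), 2 with shEZH2, 2 with shE2F1, 1 with shSUZ12, 1 of DMSO-treated cells, whose treatment label reads WT, and 1 of cells treated with GSK126. The shRNAs were delivered by lentivirus (24 h), followed by 72 h of puromycin at 2 μg/ml, in shCtrl as in the knockdowns, whereas the control of GSK126 (72 h) is DMSO. EZH2 is the methyltransferase of the Polycomb repressive complex PRC2, which places H3K27me3, SUZ12 is a core PRC2 subunit, GSK126 inhibits the EZH2 enzyme, and E2F1 is a transcription factor of the cell cycle. All libraries came from 1 cell line, and nothing in the labels says that replicates were separate cultures, so every p-value measures only the spread between these libraries, which may be technical.

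Clustered protocadherins are cell-surface adhesion proteins best known from neurons, where each cell uses a small, largely random choice of isoforms as an identity tag. In PCDHA and PCDHG, each variable exon has a promoter of its own and is spliced to shared constant exons, whereas the PCDHB genes are each a separate coding exon. The last members of PCDHA and PCDHG, the C-type isoforms, are used more constitutively. Most of the variable promoters hold a short conserved sequence element with a CGCT core that binds CTCF, and looping by CTCF and cohesin brings distal enhancers to the chosen promoter. Outside neurons, the clusters are commonly silent, with DNA methylation, SETDB1, SMCHD1 and PRC2 among the repressive systems described for them.

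A promoter was counted as open in a library when a listed peak overlapped the 500 bp on either side of the transcription start site (TSS) of its canonical transcript. "Not open" means that no peak was listed there, not that accessibility was absent. The lists held between 58626 peaks, in shEZH2 replicate 2, and 85812, in shE2F1 replicate 2, and the depth recovered from them ranged from 0.788 to 1.22 relative to shCtrl replicate 1. The MDA-MB-231 label was set against marker promoters. All 6 mesenchymal-like markers (VIM, CD44, AXL, CAV1, MSN and ZEB1) were open in all 9 libraries, as were the luminal markers KRT8, KRT18 and EPCAM, while GATA3 was open in none. ESR1 was open in 8 libraries, FOXA1 in 7 and PGR in 4. Of the neuronal markers, SYP and MAP2 were open in all 9 libraries, TUBB3 in 8, and SNAP25, STMN2 and RBFOX3 in none.

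The element of the always-open promoters is shown first, because the same letters stood in front of open and closed members alike. Each sequence is 30 bases of GRCh38 on the plus strand, with CGCT in capitals, at the sense-strand match of GNCGCT (N is any base) that lay nearest to the usual position.

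PCDHAC1, chr5:140926223-140926252: tagaaggtgtggtCGCTcacgttcaccgtc
PCDHB9, chr5:141187077-141187106: agccacaaggtggCGCTgcagactgaagag
PCDHB10, chr5:141192302-141192331: ggccacacggtggCGCTgcaggctaaagag
PCDHB11, chr5:141199533-141199562: agacacttggtggCGCTgcaggataacatc
PCDHB13, chr5:141213868-141213897: ggacgcgtggtggCGCTgcaggataagaag
PCDHGB1, chr5:141350028-141350057: aacctctgggcgcCGCTgtcgaccaaaagg
PCDHGB2, chr5:141359924-141359953: aacctctgagcgtCGCTgttggtcaaaaga

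These are 7 of the 9 members open in every library. Of the others, PCDHGC5 had no match between 250 bp before and 50 bp after its TSS, and PCDHGC3 had 5 matches in that window, so that its element is the least certain. For comparison, the next sequences belong to members that were open in no library and lie beside an open one.

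PCDHA13, chr5:140882065-140882094: atgcgcatggtgtCGCTcttcactgagaac
PCDHB7, chr5:141172569-141172598: aaacgcaaggtggCGCTgctggctaaaaag
PCDHB14, chr5:141223266-141223295: agacacatggtggCGCTacaggataagacg
PCDHGA3, chr5:141343770-141343799: ggcctcttagtgtCGCTgttgaccactcaa
PCDHGA5, chr5:141364110-141364139: ggactctgagtgtCGCTgttgaccaaagtg
PCDHGC4, chr5:141484955-141484984: tgagcccgggagcCGCTgtctgccaatcgg

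The bases before the TSS of 4 promoters are given in full, with CGCT of each GNCGCT match in capitals: PCDHB13 and PCDHGB1, whose peaks had the highest median folds among the members, PCDHB14, the closed neighbour of PCDHB13, and PCDHGC5, which was open in every library without a match.

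PCDHB13, chr5:141213799-141213918, plus strand: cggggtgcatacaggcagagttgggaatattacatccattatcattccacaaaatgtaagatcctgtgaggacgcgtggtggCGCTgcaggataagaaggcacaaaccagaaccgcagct
PCDHB14, chr5:141223223-141223342, plus strand: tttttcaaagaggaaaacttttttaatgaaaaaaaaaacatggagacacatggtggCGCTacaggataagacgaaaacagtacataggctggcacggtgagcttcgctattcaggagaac
PCDHGB1, chr5:141349979-141350098, plus strand: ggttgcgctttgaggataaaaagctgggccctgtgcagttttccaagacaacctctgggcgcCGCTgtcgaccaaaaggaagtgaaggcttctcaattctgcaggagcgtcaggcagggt
PCDHGC5, chr5:141488961-141489080, plus strand: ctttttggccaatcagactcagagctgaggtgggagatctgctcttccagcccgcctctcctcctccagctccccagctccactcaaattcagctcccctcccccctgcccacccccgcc

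Few protocadherin promoters were open in these cells, and the open ones were largely the same in every library. Of the 53 members, 9 were open in all 9 libraries, which is 16.98%, against 58.1% of all protein-coding promoters. These were PCDHAC1, PCDHB9, PCDHB10, PCDHB11, PCDHB13, PCDHGB1, PCDHGB2, PCDHGC3 and PCDHGC5. In at least 1 library, 16 members were open, or 30.2%, against 68.7% of all promoters. The other 37 members were open in none.

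**Figure D1:**
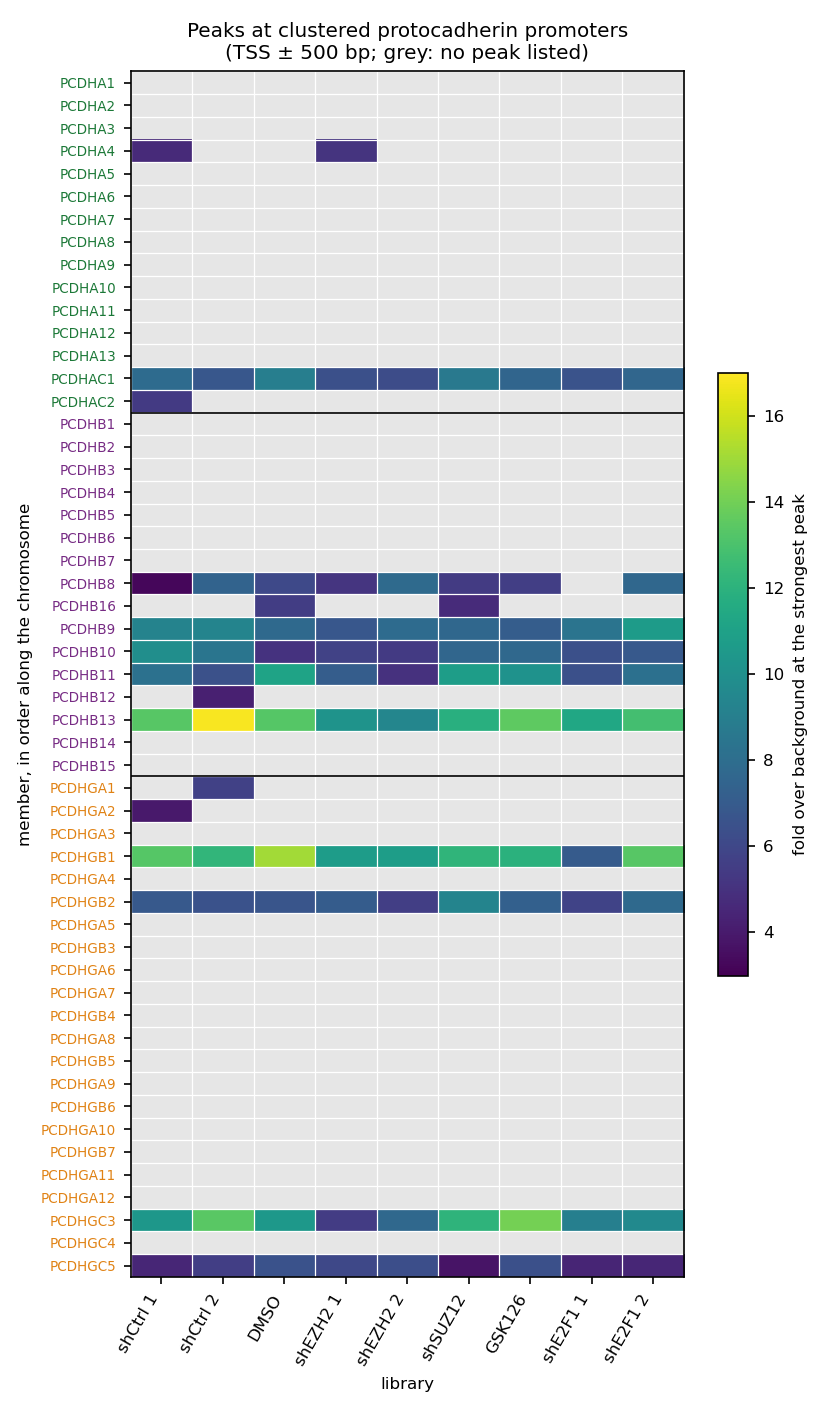
Rows are the 53 members in their order along the chromosome and columns the 9 libraries; colour gives the fold over local background of the strongest peak within 500 bp of the TSS, and grey means that no peak was listed. The same 9 rows are coloured in every library, PCDHB8 in 8 of them, and 37 rows are grey throughout.

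The subclusters differed in how many members were open. In PCDHA, only PCDHAC1 of 15 members was open in all 9 libraries, and none of the 13 numbered PCDHA genes was. In PCDHB, 4 of 16 were open in all libraries and 7 in at least 1. In PCDHG, 4 of 22 were open in all libraries, made up of 2 of 7 PCDHGB genes, 2 of 3 PCDHGC genes and none of 12 PCDHGA genes. Of the C-type isoforms, PCDHAC1, PCDHGC3 and PCDHGC5 were open in all libraries, PCDHAC2 was open in 1 and PCDHGC4 in none.

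The open PCDHB members were neighbours. The 7 members from PCDHB8 to PCDHB13 in chromosome order (PCDHB8, PCDHB16, PCDHB9, PCDHB10, PCDHB11, PCDHB12 and PCDHB13) were each open in at least 1 library, and the 9 other PCDHB members were open in none. In PCDHG, the open members lay at both ends of the subcluster: PCDHGA1, PCDHGA2, PCDHGB1 and PCDHGB2 at the start and PCDHGC3 and PCDHGC5 at the end.

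Between the open members lay long intervals in which no library had a peak. From PCDHGB2 to PCDHGC3, no peak of any library was listed over 115 kb, which hold the start sites of 13 members, PCDHGA5 to PCDHGA12. From PCDHA4 to PCDHAC1, none was listed over 118 kb with 9 start sites, PCDHA5 to PCDHA13. Another interval, of 92.9 kb before PCDHB8, held 6 start sites, PCDHB2 to PCDHB7. Together these 3 intervals hold 28 of the 37 members open in no library. In the whole genome, 74 peak-free intervals held at least 5 protein-coding start sites, and that of PCDHGA5 to PCDHGA12 shared the 13th place among them by the number of start sites.

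**Figure D2:**
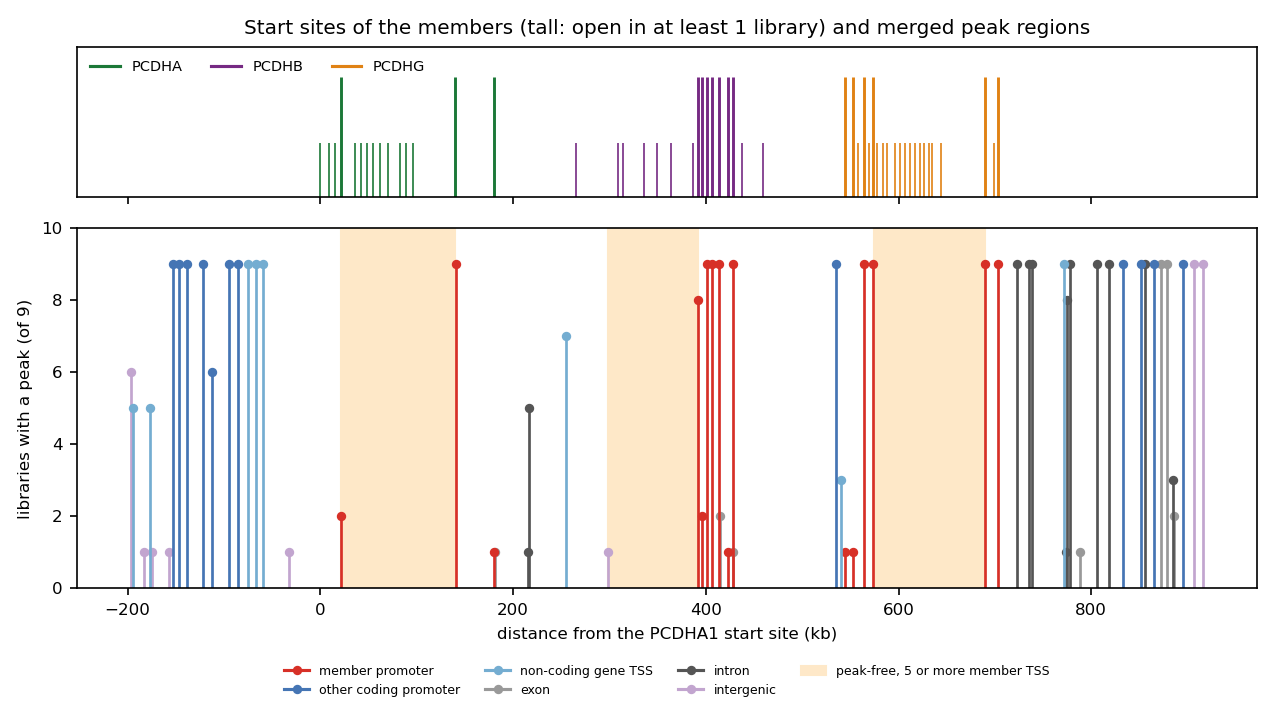
The upper panel marks the TSS of each member by its distance in kb from the TSS of PCDHA1, with tall marks for the 16 members open in at least 1 library. The lower panel gives, for each of the 63 merged peak regions, the number of libraries with a peak and what lies there; the shaded bands are the 3 peak-free intervals of 115, 118 and 92.9 kb.

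The always-open promoters differed in peak height. PCDHB13 had a fold over local background of 13.4 and 16.9 in shCtrl, 13.3 in DMSO, 10.2 and 9.41 in shEZH2, 11.8 in shSUZ12, 13.5 in GSK126, and 11.4 and 12.8 in shE2F1. It had the highest median fold of the members, 12.8, followed by PCDHGB1 with a median of 12.2 and a range of 7.01 to 15.0. For PCDHGC3 the fold was 10.4 and 13.4 in shCtrl, 10.5 in DMSO, 5.48 and 7.75 in shEZH2, 12.1 in shSUZ12, 14.1 in GSK126, and 9.06 and 9.65 in shE2F1. By these raw folds, both PCDHB13 and PCDHGC3 were lowest in the shEZH2 libraries, without overlap with any other library. The share of all promoters with this pattern was not computed, so the pattern cannot be called particular to these members. Ranked by fold among promoters open in every library, PCDHB13 was lowest in shSUZ12 (percentile 50.8, against 57.7 and 51.8 in shEZH2). By that rank PCDHGC3 was still lowest in shEZH2 (9.72 and 33.8, against 39.3 in DMSO). Against shCtrl alone, each shEZH2 rank lay under each shCtrl rank for 17.3% of the 11645 promoters open in every library.

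At the low end, PCDHGC5 had a median fold of 5.6 and a range of 3.72 to 6.51. The remaining always-open members lay between these: PCDHB11 from 4.99 to 11.1, PCDHB9 from 6.77 to 10.7, PCDHB10 from 5.02 to 9.93, PCDHGB2 from 5.62 to 9.31 and PCDHAC1 from 6.24 to 8.97. Because their ranges overlap, the order of these 5 promoters was not resolved across libraries. The numbers of tags behind the summits were small, from 11 to 77 over the 9 always-open members, so single folds carry a large counting error.

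Compared with other open promoters, the members had narrow peaks. In shCtrl replicate 1, the median peak of the 9 always-open members was 625 bp long, against 1047 bp over all 11645 promoters open in every library, and the median fold was 9.25 against 10.3. Ranked by fold among these 11645 promoters, the members ran from percentile 0.511 (PCDHGC5 in shSUZ12) to percentile 92.5 (PCDHB13 in shCtrl replicate 2).

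PCDHB8 was open in 8 libraries and has a near copy. Its fold was 3.23 and 7.47 in shCtrl, 6.10 in DMSO, 5.17 and 7.84 in shEZH2, 5.41 in shSUZ12, 5.59 in GSK126 and 7.69 in shE2F1 replicate 2, with no peak in shE2F1 replicate 1. Within 500 bp of the TSS, 50.5% of the 31-base words of PCDHB8 and 53.8% of those of PCDHB13 occur elsewhere in the genome, and the windows share 49.6% with each other. The longest run of identical bases was 267, from 234 to 500 bp after the TSS of PCDHB8. The authors kept up to 4 alignments per read, so reads from one of these promoters can count at the other, and the share of the PCDHB8 peak that came from PCDHB13 was not tested. In every library with both peaks, PCDHB8 was the lower one.

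Such sharing was smaller at the other open promoters: 26.6% of the words of PCDHB9 and 22.3% of those of PCDHB10 occur elsewhere, and for PCDHAC1, PCDHB11, PCDHGB1, PCDHGB2, PCDHGC3 and PCDHGC5 it was 0%. Among members open in no library, 41.2% of the words of PCDHGB4 and 41.8% of those of PCDHGB5 occur elsewhere.

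Another 6 members were open in only 1 or 2 libraries, with low peaks. PCDHA4 was open in shCtrl replicate 1 and shEZH2 replicate 1 (fold 4.66 and 5.09), PCDHB16 in DMSO and shSUZ12 (5.56 and 4.73), PCDHAC2 in shCtrl replicate 1 (5.38), PCDHGA2 in the same library (3.94), and PCDHB12 and PCDHGA1 in shCtrl replicate 2 (4.22 and 5.72). None of these 6 was open in both replicates of any group. The PCDHA4 peaks only reached the edge of the window, as they began 478 and 476 bp after the TSS, with summits at 563 and 561 bp. With a window of 250 bp, or with the summit required inside the window, PCDHA4 was not open and 15 members were open in any library. The summit rule also left 8 members open in all libraries, without PCDHAC1, whose summit in shCtrl replicate 2 lay 559 bp after the TSS.

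The sense-strand letters GNCGCT were common to open and closed members. Between 250 bp before and 50 bp after the TSS, 48 of 53 members had a match (90.6%), against 37.5% of all protein-coding promoters. On either strand the shares were 92.5% and 56.8%. A match was present at 8 of 9 always-open members, 6 of 7 members open in 1 to 8 libraries and 34 of 37 members open in none, so its presence did not separate open from closed promoters. Its C lay at a median of −56 bp from the TSS, and from −64.3 to −44 bp for the middle 50% of members.

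Longer forms differed in count between subclusters. The letters GTGGCGCT were found at 14 of 16 PCDHB members, at no member of the other subclusters and at 0.923% of all promoters, and TGTCGCT at 12 of 15 PCDHA, 1 of 16 PCDHB and 3 of 22 PCDHG members and 1.24% of all promoters. In PCDHG, GCCGCTGT was found at 12 of 22 members, against 1.17% of all promoters. These letters were chosen after the sequences had been seen, and each form contains a match of GNCGCT.

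Summits lay near the element at some promoters and not at others. Over the 72 peaks of the 8 always-open members with a match, the median distance between summit and CGCT was 35 bp, and 49 summits (68.1%) lay within 60 bp. At PCDHB13, the 9 summits lay between −53 and −33 bp from the TSS and the CGCT at −38 bp. At PCDHAC1, the summits lay between 60 and 559 bp after the TSS, away from its match at −63 bp, and at PCDHGC5, which had no match, they were spread from −307 to 355 bp. In shCtrl replicate 1, the median summit lay at −22 bp from the TSS for the always-open members. Over all promoters open in every library it lay at −72 bp. Nearness to the element thus cannot be told apart from nearness to the TSS. The 72 peaks include those of PCDHGC3, whose match is the least certain. As the summits of 1 promoter in 9 libraries come from the same sequence, these distances are a description.

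**Figure D3:**
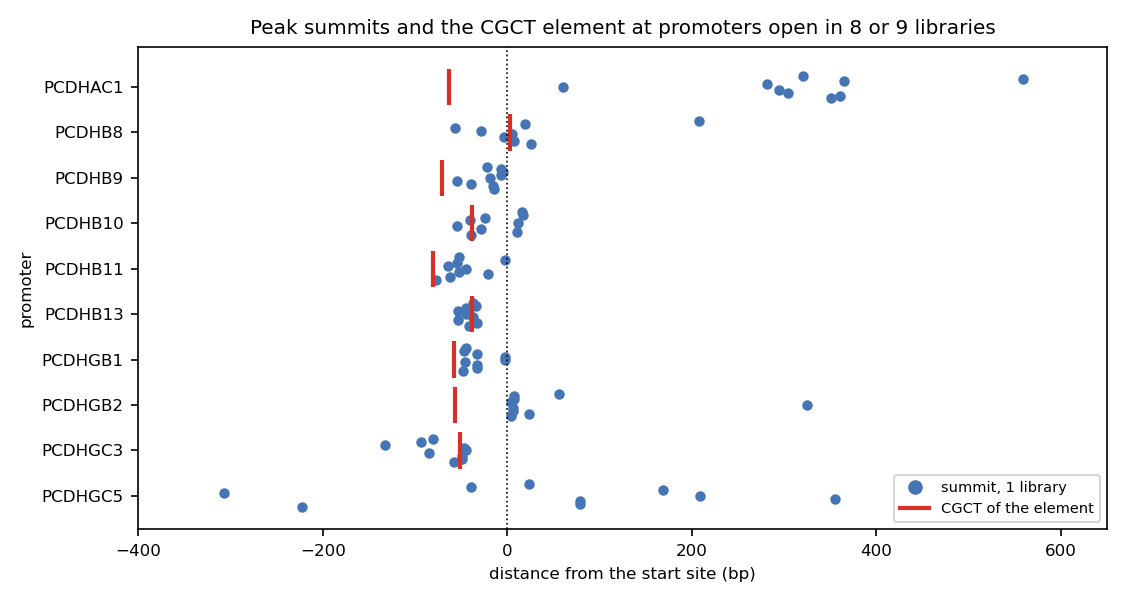
Each blue point is the summit of the strongest peak in 1 library, by its distance in bp from the TSS, for the 10 promoters open in 8 or 9 libraries; the red bar marks CGCT of the chosen GNCGCT match. At PCDHB13 the 9 summits lie between −53 and −33 bp, around the bar at −38 bp, whereas at PCDHAC1 they lie between 60 and 559 bp.

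Other motifs were rare at the members, and TGACTCA and the CTCF motif were also rare over all promoters. Within 500 bp of the TSS, TGACTCA, the site of the AP-1 factors, was present on either strand at 4 of 53 members (7.55%), against 9.65% of all promoters. All 4 were among the 37 members open in no library. An E2F motif of the form TTT, C or G, C or G, CGC was present at 1 member (1.89%), against 10.5% of all promoters. The CTCF core motif was present at no member, against 0.909% of all promoters, so its absence does not set the 53 members apart.

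Open members had a lower median CpG ratio than closed members. The CpG ratio, the number of CG pairs over the number expected from the C and G content within 500 bp of the TSS, had a median of 0.448 over the 9 always-open members, 0.454 over the 7 open in 1 to 8 libraries and 0.693 over the 37 open in none. Over all protein-coding promoters the order was the other way, with 0.790 for those open in all libraries and 0.306 for those open in none. The median GC content of the 9 always-open members (43.2%) and of the 37 closed ones (44.4%) was similar within 500 bp of the TSS. From 250 bp before to 50 bp after the TSS it differed, at 46.3% and 38.3%.

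Within PCDHB the ranges did not overlap: the 7 members open in at least 1 library had ratios from 0.314 (PCDHB9) to 0.454 (PCDHB8), and the 9 closed members from 0.487 (PCDHB7) to 0.713 (PCDHB4). In PCDHG they overlapped, from 0.193 (PCDHGC5) to 0.710 (PCDHGC3) for 6 open members and from 0.558 (PCDHGA4) to 0.914 (PCDHGA11) for 16 closed ones. In PCDHA, PCDHAC1 had 0.789, above the closed median of 0.773. Neighbouring PCDHB genes share sequence and position, and the open ones were neighbours, so the members are not independent and no test is given.

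**Figure D4:**
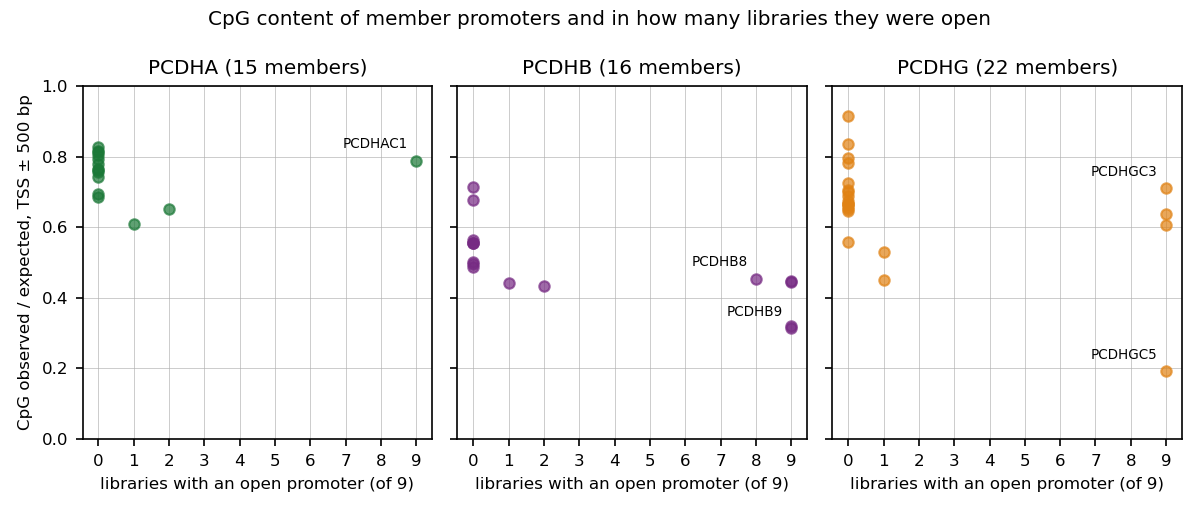
Each point is 1 member, with the number of libraries in which its promoter was open on the x axis and its observed over expected CpG ratio within 500 bp of the TSS on the y axis, by subcluster. In PCDHB the 7 members open in any library lie at or below 0.454 and the 9 closed members at or above 0.487, while PCDHAC1 and PCDHGC3 are open with ratios of 0.789 and 0.710.

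To ask whether loss of EZH2 or E2F1 opened or closed protocadherin promoters, open members were counted per library. There were 13 and 12 in shCtrl, 11 in DMSO, 11 and 10 in shEZH2, 11 in shSUZ12, 10 in GSK126, and 9 and 10 in shE2F1. The shCtrl libraries had the highest counts, and neither shEZH2 nor shE2F1 overlapped with them. The same held over all protein-coding promoters, with 12962 and 12976 open in shCtrl. There were 12717 and 12014 in shEZH2 and 12457 and 12856 in shE2F1, so this order was not particular to the members. The mean was 12.5 ± 0.707 (SD, n = 2) in shCtrl, 10.5 ± 0.707 (n = 2) in shEZH2 and 9.50 ± 0.707 (n = 2) in shE2F1, a difference of −2 (exact two-sided permutation test, p = 0.333) and of −3 (p = 0.333, exact). With 2 libraries against 2, 0.333 is the smallest p this test can give, so neither comparison could reach significance.

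The PRC2-directed libraries together (both shEZH2, shSUZ12 and GSK126) had a mean of 10.5 ± 0.577 (n = 4) open members against 12 ± 1 (n = 3) in shCtrl and DMSO, a difference of −1.50 (exact two-sided permutation test, p = 0.171, with 0.0571 as the smallest possible). The share of all promoters that were open also varied, from 59.97% in shEZH2 replicate 2 to 64.8% in shCtrl replicate 2. When every list was shortened to the same number of top peaks, the differences turned to 0.5 for shEZH2, 0.5 for shE2F1 and 0.0833 for the PRC2-directed libraries, so the direction depended on the length of the peak lists. With lists cut at a −log10 q of 5, the differences were −0.5 (p = 1), −1.5 (p = 0.333) and −0.5 (p = 0.571, exact permutation tests).

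No member was gained or lost in a comparison with replicates. A promoter was called lost when it was open in every control library and in no perturbed library, and gained in the reverse case. For shEZH2 against shCtrl, none of 10 eligible members was lost, against a background of 1.61% of all promoters open in both shCtrl libraries, and none of 38 was gained, against 0.207%. For shE2F1, none of 10 was lost (background 1.00%) and none of 38 gained (0.459%). For the PRC2-directed libraries against all controls, none of 10 was lost (0.120%) and none of 37 gained (0%). At these background shares, under 1 member would be called on average in each of these comparisons, so the counts of 0 do not set the members apart from other promoters.

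With 1 library per group there was no replicate check. For shSUZ12 against shCtrl, none of 10 members was lost (background 1.22%) and 1 of 38 was gained (2.44%), PCDHB16. For GSK126 against DMSO, 1 of 11 was lost (2.85%), again PCDHB16, and none of 42 was gained (2.17%). The peaks of PCDHB16 rested on 18 to 19 tags at the summit. With the same number of top peaks in every list, PCDHB16 was no longer called in shSUZ12, and the 2 calls were its loss and a gain of PCDHB10 in GSK126. The 2 calls summed over all 5 comparisons became 8 without shCtrl replicate 1 and 10 without shCtrl replicate 2, so the count of calls rests on having both.

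The always-open promoters were then ranked within each library by the fold of their peak among the 11645 common promoters. This comparison was chosen after the data had been seen. PCDHGC3 stood at percentiles 50.9 and 69.8 in shCtrl and 9.72 and 33.8 in shEZH2, a difference in means of −38.6 (mean 60.4 ± 13.3 against 21.7 ± 17.01, SD, n = 2 each). PCDHB13 stood at 78.7 and 92.5 in shCtrl and at 57.7 and 51.8 in shEZH2, a difference of −30.8. PCDHB10 stood at 45.5 and 25.6 in shCtrl and at 11.9 and 11.4 in shEZH2, a difference of −23.9. For these 3 members alone, both shEZH2 ranks lay under both shCtrl ranks.

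PCDHGC5 was the member ranked higher in both, at 14.1 and 19.8 in shEZH2 against 2.71 and 6.54 in shCtrl, and 5 members overlapped. Over all common promoters, 17.3% were lower and 20.9% higher for shEZH2. For shE2F1, PCDHB10 (20.7 and 18.5) and PCDHB13 (77.9 and 77.4) were lower than in shCtrl, PCDHB9 (44.2 and 55.8 against 38.6 and 32.9) was higher, and 6 overlapped, with 18.1% of all common promoters lower and 19.0% higher. The members' counts of 3 and 1 for shEZH2 and of 2 and 1 for shE2F1, of 9, thus lie near the background shares. Both comparisons use the same shCtrl libraries.

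The single libraries did not all move with shEZH2. PCDHGC3 stood at 39.3 in DMSO, 53.4 in shSUZ12 and 70.8 in GSK126, all above both shEZH2 libraries. PCDHB13 stood at 65.4, 50.8 and 66.1 in the same order, with shSUZ12 below both shEZH2 libraries. PCDHB10 was lower in DMSO, at 3.11, than in any perturbed library. By the percentile in the whole peak list, 5 members were lower in shEZH2 and 1 higher. Without shCtrl replicate 2, 7 members were lower in shEZH2, with 30.6% of all common promoters lower, and without shCtrl replicate 1, 4 were higher, with 34.2% of all common promoters higher.

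**Figure D5:**
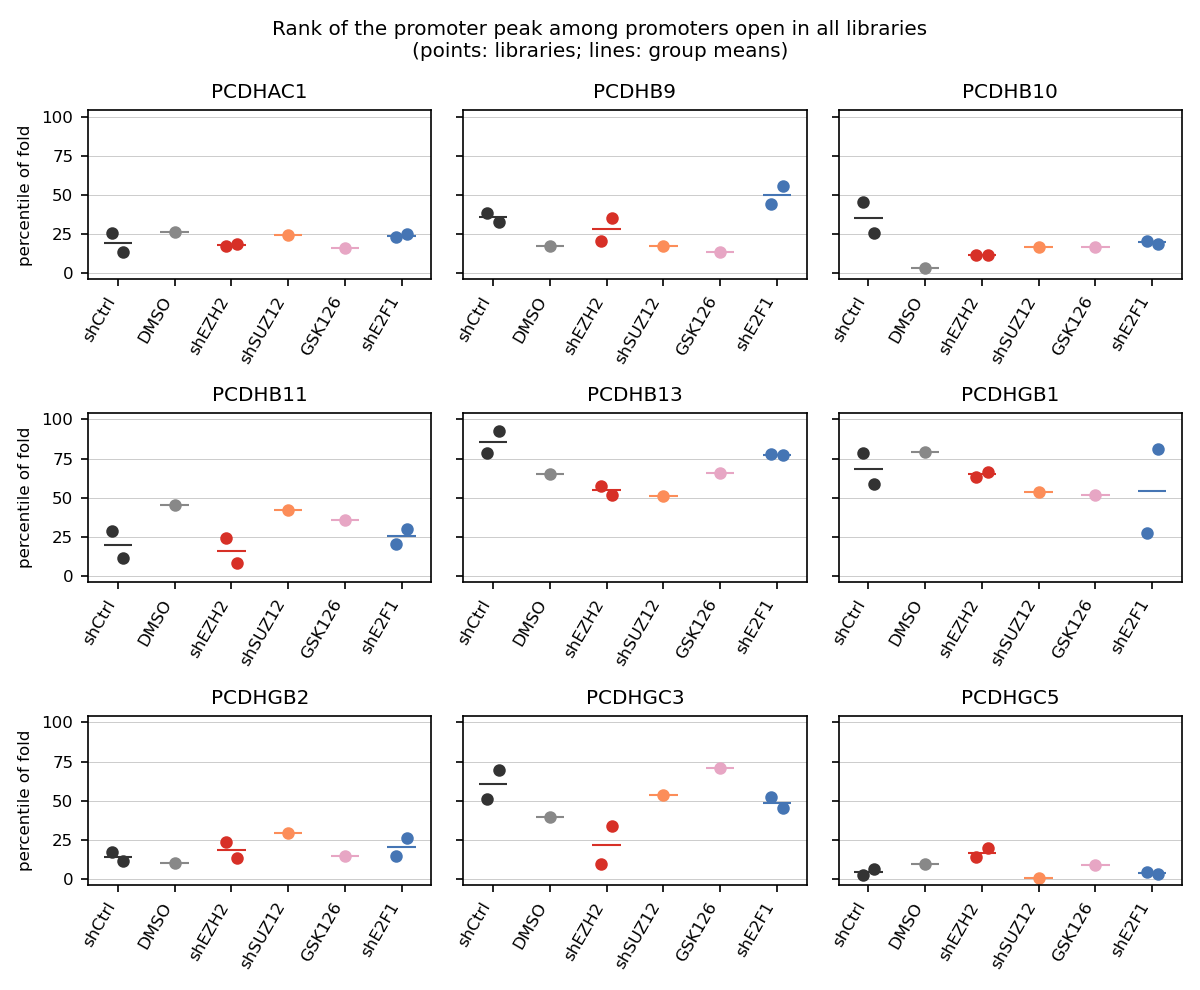
For each of the 9 members open in every library, points give the percentile of its peak's fold among the 11645 promoters open in all libraries, 1 point per library, with a line at the group mean. For PCDHB10, PCDHB13 and PCDHGC3 both shEZH2 points lie below both shCtrl points, and for PCDHGC5 above them.

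Across the locus, from 200 kb before the first member to 200 kb after the last, peaks of all libraries merged into 63 regions. Of these, 35 (55.6%) were shared by all 9 libraries, against 34.2% of all merged regions. By position, 26 regions lay within the clusters, 17 in the upstream flank and 20 in the downstream flank. Within the clusters, 16 regions were member promoters, and only 2 of the 11 regions present in all libraries were not: the promoter of TAF7, a general transcription factor gene between PCDHB and PCDHG, and an intronic region. The clusters held 17.9 to 26.1 peaks per Mb in the 9 libraries, close to the genome-wide 19.0 to 27.8, while the flanks held 65 to 82.5.

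That intronic region lies at chr5:141508908-141509663, in an intron of the PCDHG transcripts, and its midpoint was 20204 bp after the TSS of PCDHGC5. Its fold was 7.72 and 8.13 in shCtrl, 13 in DMSO, 7.18 and 9.97 in shEZH2, 8.13 in shSUZ12, 8.36 in GSK126, and 5.39 and 9.62 in shE2F1, with the groups overlapping. Downstream, where distal protocadherin enhancers are known to lie, regions in introns of DIAPH1, a formin gene, were open in all 9 libraries at chr5:141520863-141521840 (fold 7.64 to 11.6) and chr5:141524711-141525142 (5.53 to 8.36).

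A region between PCDHA and PCDHB, the interval in which the PCDHA enhancer HS5-1 is known to lie, was listed in 7 libraries. It spans chr5:141041145-141041469, 28.8 kb after the end of the PCDHA genes and 9.91 kb before the TSS of PCDHB1, at the annotated start of the non-coding gene ENSG00000288892. Its fold was 6.45 and 9.42 in shCtrl, 9.33 in DMSO, 5.77 and 9.98 in shEZH2, and 12.4 and 11.6 in shE2F1, and no peak was listed in shSUZ12 or GSK126. Both shE2F1 folds lay above both shCtrl folds, and the shEZH2 folds overlapped with those of shCtrl. The share of all regions with such a separation was not computed. Among the common promoters, compared by rank rather than raw fold, 19.0% stood higher in both shE2F1 libraries than in both shCtrl libraries. The 7 libraries kept the peak of this region at a −log10 q of at least 5, with equal-length lists and with depth-scaled lists. These alternatives only remove peaks, so they could not restore one in shSUZ12 or GSK126 and do not test its absence. The relative depth was 1.18 in shSUZ12 and 0.816 in GSK126. As each of these is a single library and both shEZH2 libraries had the peak, the difference has no replicate check.

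Matches of the CTCF core motif, in capitals, are shown to mark where it coincided with peaks, for the 4 regions in or nearest to the clusters that held one, on the strand of the match. The first is the only site under a member's peak: it lies 582 bp after the TSS of PCDHA4, in its first exon, 19 and 21 bp from the summits of the 2 libraries.

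PCDHA4, chr5:140807635-140807664, plus strand: tctcggtttCCACTAGAGGGCgcctcggat
Region before PCDHB1, chr5:141041363-141041392, minus strand: cctcatctgCCACCAGGTGGCaggtggatc
DIAPH1 intron, chr5:141524885-141524914, minus strand: gatgctcagCCAGCAGGTGGCgctgggagc
DIAPH1 intron, chr5:141564386-141564415, minus strand: tgctttcagCCACCAGATGGCacatggatc

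In the first 1000 bases of the members, 4 of 15 PCDHA genes (PCDHA4, PCDHA7, PCDHA9 and PCDHA13) had this motif, and no PCDHB or PCDHG gene did. Only PCDHA4 of the 4 had a peak there.

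With all libraries, regions gained and lost across the locus were few. For shEZH2 against shCtrl, 2 of 43 eligible regions were lost, against 10.8% genome-wide, and none of 9 was gained (2.91%). The 2 were low peaks, at the promoter of DND1 (fold 3.94 and 3.55 in shCtrl) and in an intron of ARAP3 (4.10 and 3.77), and neither lay at a member. For shE2F1, 1 of 43 was lost (6.17%) and none of 9 gained (10.3%). For shSUZ12, 4 of 43 were lost (12.6%) and 3 of 9 gained (21.4%), and for GSK126 3 of 43 were lost (18.6%) and none of 20 gained (14.2%). For the PRC2-directed libraries against controls, none of 40 was lost (1.44%) and none of 8 gained (0.152%). The region before PCDHB1 was the one lost in both shSUZ12 and GSK126.

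These counts rest on single libraries. Without shCtrl replicate 1, 9 regions were lost in shEZH2, 8 in shE2F1, 9 in shSUZ12 and 1 in the PRC2-directed libraries, and without shCtrl replicate 2, 4, 4, 8 and 0. Without shEZH2 replicate 1, 6 were lost in shEZH2, and without shEZH2 replicate 2, 2 were gained. Without shE2F1 replicate 1, 2 were lost and 3 gained in shE2F1, and without shE2F1 replicate 2, 3 and 1. With the same number of top peaks, shEZH2 had no lost region, and shSUZ12 had 1 lost and none gained.

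The 5 regions outside member promoters with the highest peaks in every library lay in the flanks. They were an intron of DIAPH1 (chr5:141603887-141604738, percentile of fold within each list at least 96.2), the shared promoter region of NDUFA2 and IK (96.1), and the regions at the vault RNA genes VTRNA1-2 (92.6), VTRNA1-1 (91.7) and VTRNA1-3 (87.4). The protein-coding neighbours of the clusters were mostly open: 14 of 17, including TAF7, DIAPH1 and HDAC3, in all 9 libraries, DND1 in 6, and SLC25A2 and ENSG00000279983 in none.

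Of the 13 non-clustered protocadherins, encoded elsewhere as single genes, PCDH1 and PCDH9 were open in all 9 libraries, PCDH7 in 3, PCDH10 and PCDH18 in 2 each, and PCDH12 and PCDH20 in 1 each, while the other 6 were open in none. Of the 17 genes for known regulators of the clusters (CTCF, cohesin and its loaders, SMCHD1, SETDB1, DNA methyltransferases and others), 16 had promoters open in all 9 libraries, and TET1, a 5-methylcytosine oxidase, in shCtrl replicate 1 and shEZH2 replicate 1. The promoters of the targeted genes EZH2, SUZ12 and E2F1 were open in all 9 libraries, and since shRNAs act on the transcript, this does not check the knockdowns.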

How the data were processed

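ATAC-seq peak lists of 9 MDA-MB-231 libraries were used, 1 list per library. The authors aligned reads with Bowtie2, keeping up to 4 alignments per read, to hg38 (GRCh38) and shifted them for Tn5; the peak caller is not given in the sources used here. The deposited lists hold a fold (the ratio of summit tags to local background), −log10 p, −log10 q, a score, which was not used, and the summit. The lowest −log10 q was 2.00, and no peak lay beyond a GRCh38 chromosome.

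Promoters were TSS ± 500 bp of canonical GENCODE v44 transcripts, a peak counted at 1 bp of overlap, and regions were peaks of all lists merged at 1 bp. Fold and −log10 p together fix a whole number of tags and a background at the summit, recovered for at least 99.9% of peaks of every list, and the most frequent background was taken as depth. Open members per library were compared by an exact two-sided permutation test over libraries. The labels gave the groups. Members, lists and comparisons were chosen with earlier results of these data known, and the printed closed members after their values were seen. The element sequence of PCDHGC3 is not reported here. Named were all members open in any library, the 5 regions highest in all libraries and some of the gained or lost regions.

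Alternatives were lists cut at a −log10 q of 5, lists of equal length, windows of 250 and 1000 bp, any coding TSS, summits, 50 bp of overlap, a flank of 50 kb, equal depth, leaving out replicates and a replicate block. Shared replicate numbers did not pair libraries: the difference between replicates 1 and 2 over promoters in shCtrl correlated at 0.0338 with that in shEZH2 and at 0.0314 with that in shE2F1. Scripts were tested on simulated data. Python 3.11.15, numpy 2.4.6, pandas 2.3.3, scipy 1.17.1 and matplotlib 3.10.9 were used.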

Additional observations from a re-analysis of the deposited data

Results flagged for a closer look

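The promoter of PCDHB16 went opposite ways in the 2 PRC2-directed comparisons with a single perturbed library, shSUZ12 and GSK126. A peak was listed in shSUZ12 (fold 4.73) and in neither shCtrl library, whereas in the drug comparison a peak was listed in DMSO (fold 5.56) and not in GSK126. It was flagged because the sign of the change differed between groups. The difference was not tested, since each side rests on 1 library. Of all eligible promoters, 2.44% were gained in shSUZ12 and 2.85% lost in GSK126, against 1 of 38 and 1 of 11 members. Neither shEZH2 library had a peak there. With the same number of top peaks in every list, the gain in shSUZ12 was no longer called, so the opposite directions were lost, while the loss in GSK126 was still called.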

How the results depend on the processing

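With the same number of top peaks in every list, the differences in open members were 0.5 for shEZH2, 0.5 for shE2F1 and 0.0833 for the PRC2-directed libraries (p = 1 in each, exact permutation test), the reverse of −2, −3 and −1.50, and 5 members in place of 9 were open in all libraries. A flank of 50 kb left 32 regions, 14 of them in all libraries, by its construction. The difference in median CpG ratio between always-open and closed members was −0.24 and became −0.15 from 250 bp before to 50 bp after the TSS. By the percentile in the whole list, 5 members ranked lower in shEZH2; by −log10 q, 3 ranked higher in shEZH2, and 0 lower and 4 higher in shE2F1. The causes were not tested. Both rank alternatives were chosen after seeing the data.

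With 1 library left out at a time, the differences ranged from −2.50 to −1.50 (shEZH2), −3.50 to −2.50 (shE2F1) and −1.67 to −1 (PRC2-directed), the members open in all libraries from 9 to 10 and in none from 37 to 39, the regions from 59 to 63 with 35 to 36 in all libraries, and members ranked lower in shEZH2 from 3 to 7, higher from 1 to 4, lower in shE2F1 from 3 to 4 and higher from 1 to 4. Gained and lost calls summed over the 5 comparisons went from 2 to 10, with 8 without shCtrl replicate 1 and 10 without shCtrl replicate 2, since openness in a single shCtrl library then decides. In the replicate block, the mean paired differences were −2 for shEZH2 and −3 for shE2F1 (p = 0.5 for both, exact sign-change test, the smallest possible). With lists cut at a −log10 q of 5 and no block, the differences in open members shrank to −0.5 (shEZH2), −1.5 (shE2F1) and −0.5 (PRC2-directed). No alternative could make a difference in open members significant, since the smallest p the permutation tests could give was 0.333 (shEZH2), 0.333 (shE2F1) and 0.0571 (PRC2-directed). Apart from lists of equal length, all alternatives kept the direction of these differences. Lost and gained regions by comparison also moved with the library left out, from 2 to 9 lost in shEZH2 and from 1 to 8 in shE2F1. Few tags per summit (11 to 77 at always-open members) limit what low peaks can show.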
